A study of Mus musculus with 4 samples.

Results

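The interleukin-1 (IL-1) and interleukin-18 (IL-18) genes were examined in RNA from mouse skin cells labelled as regulatory T cells (Tregs), from mice with and mice without narrow-band ultraviolet B (UVB) exposure. The set held 10 genes, found by gene name among 55487 genes in the deposited tables. It comprised the ligands Il1a, Il1b and Il18, the soluble antagonist Il1rn, the decoy receptor Il1r2, the receptor chains Il1rap, Il18r1 and Il18rap, the inflammasome sensor Nlrp3 and the protease Casp1. All mice had received 60 mg of a cream with 5% imiquimod daily on shaved back skin, which induces a psoriasis-like dermatitis. The UVB group had in addition been exposed to UVB 3 times, and the non-UVB group had not. Each group had 2 libraries, numbered 1 and 2. The sources used here do not give the strain, age, sex or sorting of the cells, and what the numbers mark is not stated. A p-value here covers the spread between libraries only, and that spread may be technical. Values are given with number 1 before number 2 within the non-UVB pair and within the UVB pair.

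IL-1 is an inflammatory signal carried by 2 ligands, IL-1 alpha and IL-1 beta, which engage a receptor together with the accessory chain encoded by Il1rap. IL-1 beta and IL-18 are made as inactive precursors and are cut by caspase-1, which is activated in inflammasomes such as the one built on NLRP3. The antagonist encoded by Il1rn occupies the receptor without signalling, and the decoy encoded by Il1r2 binds the ligand without signalling. In skin, keratinocytes store IL-1 alpha and IL-18, myeloid cells are a main source of IL-1 beta, and several T cell subsets carry receptors for both cytokines.

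The non-UVB pair rested on about 34136223 and 24664880 read equivalents of 100 bp and the UVB pair on about 42003778 and 23824843. Levels are in TPM, transcripts per 1000000, a value per transcript length that sums to 1000000 in every library. Genes listed at exactly 0 need care, since of 117 proteasome and mitochondrial ribosomal genes, which all cells use, 17 and 6 were listed at 0 in the non-UVB pair and 4 and 3 in the UVB pair. Below 1 TPM, the same set had 29 and 33 genes in the non-UVB pair and 5 and 11 in the UVB pair. Fewer genes in all reached 1 TPM without UVB, 7825 and 8033 against 10317 and 10227 with it, so low levels and detection moved with the group. Their part in the differences with UVB was not tested. Haemoglobin genes held 11.7% of TPM in non-UVB replicate 1 and 0.441% or less in the other libraries. Foxp3, the defining factor of Tregs, had 0 and 19.4 TPM in the non-UVB pair and 3.49 and 19.3 TPM in the UVB pair. A list of 12 marker genes of gamma-delta T cells summed to 11090 and 180 TPM in the non-UVB pair and to 10372 and 340 TPM in the UVB pair. Foxp3 was thus lower, and gamma-delta markers were higher, in both libraries numbered 1.

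The family divided into a few transcripts read in every library and a larger number that were near 0 in some. Il1b, Il1rn and Il1r2 were the 3 members at 10 TPM or more in all 4 libraries. Il18 was listed at 0 in all 4 libraries, with 0 coverage, and was the 1 member that did not reach the filter of 1 TPM in at least 2 libraries. Of the 9 members that reached it, 5 were listed at 0 in at least 1 library, namely Il1a, Il1rap, Il18r1, Nlrp3 and Casp1. Over all 10286 tested genes that share was 21.8%. None of the 9 passed the test in either comparison, with UVB or between numbers.

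**Figure D1:**
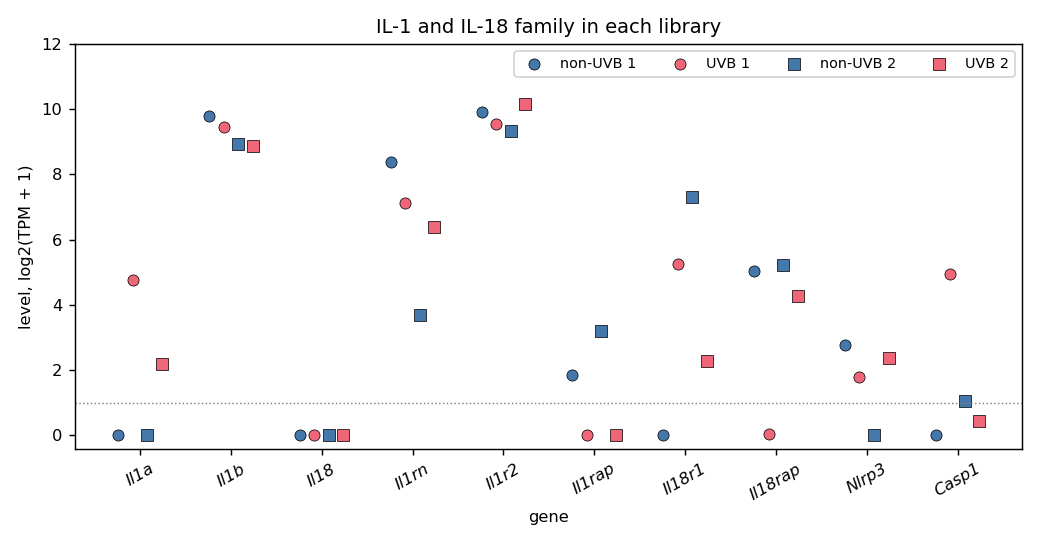
The level of each of the 10 genes is drawn as log2(TPM + 1) for each library, with circles for number 1, squares for number 2, blue for non-UVB, red for UVB and a dotted line at 1 TPM. Il1b, Il1rn and Il1r2 lie above the line in every library, Il18 lies at 0, and the remaining genes span both sides of it.

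Il1b (ENSMUSG00000027398, chromosome 2, 129364570 to 129371139, minus strand, GRCm38), the gene of IL-1 beta, had 886 and 484 TPM in the non-UVB pair and 698 and 465 TPM in the UVB pair. The UVB values overlapped the non-UVB values, and both libraries numbered 1 stood above both numbered 2. These values rested on between about 9954 and 26918 read equivalents per library. The difference with UVB was -0.20 ± 0.48 (SE) on the log2(TPM + 1) scale with n = 2 per group, less than its error (limma adjusted p = 0.9998). Number 2 stood below number 1, at a difference of -0.73 ± 0.26 log2 with an unadjusted limma p of 0.0487 and an adjusted p of 0.394.

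Il1a (ENSMUSG00000027399, chromosome 2, 129299610 to 129309972, minus strand), the gene of IL-1 alpha, lies on the same strand as Il1b with 54597 bases between them. The non-UVB pair listed it at 0, and the UVB pair had 25.9 and 3.59 TPM. The groups did not overlap, and the 2 UVB values differed widely from each other. They rested on about 1389 and 116 read equivalents. The unadjusted limma p was 0.0379 and the adjusted p was 0.375, so the difference did not pass the test. With the non-UVB pair at 0, Il1a could reach the filter only with both UVB values at 1 TPM or more, and so without overlap. Without the filter on low values its unadjusted limma p was 0.111. No fold is given because the non-UVB libraries are listed at 0.

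The sequences before the transcription starts of these 2 ligands and of their antagonist are shown because Il1a and Il1b lie close together on 1 strand and were the only ligands of the set read in any library, and the antagonist acts on the same receptor. They are 250 bases each from RefSeq (GRCm38.p6), 5′ to 3′ on the gene's strand, ending at the base before the start. They cover chr2:129371140-129371389 for Il1b, chr2:129309973-129310222 for Il1a and chr2:24336610-24336859 for the upstream start of Il1rn. Capitals mark matches to any of 4 motifs searched on both strands, with no overlap between matches.
Il1b: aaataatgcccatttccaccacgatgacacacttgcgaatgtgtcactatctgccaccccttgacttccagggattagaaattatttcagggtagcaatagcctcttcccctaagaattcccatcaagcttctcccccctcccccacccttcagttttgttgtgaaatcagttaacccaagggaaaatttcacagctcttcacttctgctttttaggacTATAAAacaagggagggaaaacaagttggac
Il1a: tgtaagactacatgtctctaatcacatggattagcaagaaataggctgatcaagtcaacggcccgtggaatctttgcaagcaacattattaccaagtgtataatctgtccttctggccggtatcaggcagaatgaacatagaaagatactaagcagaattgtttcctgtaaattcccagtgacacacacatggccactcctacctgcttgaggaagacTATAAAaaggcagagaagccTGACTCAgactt
Il1rn: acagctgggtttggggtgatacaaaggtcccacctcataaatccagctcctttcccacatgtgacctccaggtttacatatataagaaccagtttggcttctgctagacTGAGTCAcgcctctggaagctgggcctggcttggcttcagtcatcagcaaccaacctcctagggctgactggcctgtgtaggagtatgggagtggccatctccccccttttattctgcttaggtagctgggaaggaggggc

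The motifs were the TATA box (TATAAA), the AP-1 site (TGANTCA), a C/EBP site (TTGCNNAA) and a PU.1 site (GAGGAAGT). Il1b and Il1a both held the TATA box, at -31 to -26 and at -32 to -27 from the start, and 12.3% of 32544 RefSeq windows of the same length held it. Il1a also held the AP-1 site at -12 to -6, and the upstream Il1rn window held it at -141 to -135, against 6.73% of windows. Windows were found for all 10 members, 15 in all. Among the other members, Il18rap held the PU.1 site at -79 to -72 (2.46% of windows) and Il18 the TATA box on the opposite strand. The C/EBP letters, held by 9.58% of windows, were in none of the 15. A match describes letters in the window and not binding.

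Il1rn (ENSMUSG00000026981, chromosome 2, 24336853 to 24351494, plus strand), the gene of the IL-1 receptor antagonist, had 335 and 11.9 TPM in the non-UVB pair and 140 and 83.2 TPM in the UVB pair. Both UVB values lay between the 2 non-UVB values, and both libraries numbered 1 stood above both numbered 2. The difference with UVB was 0.73 ± 1.78 log2 (limma adjusted p = 0.9998). It had opposite signs within the numbers, -1.25 log2 in number 1 and 2.71 in number 2. Number 2 stood below number 1, at a difference of -2.72 ± 1.16 log2 (limma adjusted p = 0.495). The level of the antagonist was below that of Il1b in every library, at a ratio of Il1rn to Il1b TPM of 0.378 and 0.0245 in the non-UVB pair and of 0.200 and 0.179 in the UVB pair. The UVB ratios thus lay within the non-UVB range.

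Il1r2 (ENSMUSG00000026073, chromosome 1, 40074079 to 40125231), the gene of the decoy receptor, had 963 and 647 TPM in the non-UVB pair and 754 and 1152 TPM in the UVB pair. The groups overlapped, and the numbers overlapped as well. The difference was 0.24 ± 0.41 log2 with UVB (limma adjusted p = 0.9998) and 0.02 ± 0.38 between numbers (limma adjusted p = 0.997), the latter negative after median scaling and after quantile normalization. These TPM values cannot be ranked against the other members. The deposited coverage and FPKM imply a length of 124 to 130 bases behind the level, and the shortest annotated transcript has 366.

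Il1rap (ENSMUSG00000022514, chromosome 16, 26581704 to 26730117), whose product is the signalling partner of the IL-1 receptor, had 2.58 and 8.17 TPM in the non-UVB pair and was listed at 0 in both UVB libraries. The groups did not overlap. It had the smallest p among the members with UVB, unadjusted 0.0213 and adjusted 0.265 by limma, and so did not pass. With the UVB pair at 0, Il1rap could reach the filter only with both non-UVB values at 1 TPM or more, and so without overlap. Without the filter on low values its unadjusted limma p was 0.0840. The non-UVB values of Il1rap rested on about 257 and 616 read equivalents.

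The 2 chains of the IL-18 receptor are neighbours on chromosome 1 with 14507 bases between them, and their levels did not follow each other. Il18r1 (ENSMUSG00000026070, 40465552 to 40500854), the ligand-binding chain, was listed at 0 in non-UVB replicate 1 and had 158 TPM in non-UVB replicate 2, against 37.2 and 3.87 TPM in the UVB pair. The highest and the lowest value thus both came from non-UVB libraries. Il18rap (ENSMUSG00000026068, 40515362 to 40551705), the accessory chain, had 32.1 and 36.7 TPM in the non-UVB pair and 0.0215 and 18.4 TPM in the UVB pair. Both UVB values were below both non-UVB values, and UVB replicate 1 held only about 2.85 read equivalents. The difference with UVB was 0.11 ± 3.00 log2 for Il18r1 (limma adjusted p = 0.9998), negative with FPKM and after quantile normalization, and -2.99 ± 1.83 log2 for Il18rap (limma adjusted p = 0.839). The value for Il18rap was -0.87 without UVB replicate 1 and -5.11 without UVB replicate 2. Non-UVB replicate 1 had the accessory chain with the binding chain listed at 0, and UVB replicate 1 had the binding chain with the accessory chain near 0.

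Nlrp3 (ENSMUSG00000032691, chromosome 11, 59541568 to 59566956), the inflammasome sensor, had 5.81 and 0 TPM in the non-UVB pair and 2.46 and 4.14 TPM in the UVB pair. The groups overlapped, and the difference was 0.69 ± 1.21 log2 (limma adjusted p = 0.9998), negative after quantile normalization. Casp1 (ENSMUSG00000025888, chromosome 9, 5298508 to 5307290), the protease that matures IL-1 beta and IL-18, had 0 and 1.09 TPM in the non-UVB pair and 30.2 and 0.370 TPM in the UVB pair. UVB replicate 1 alone stood above 2 TPM, with about 599 read equivalents against 14.4 or fewer in each of the other libraries. Its coverage and FPKM imply a length of 731 to 771 bases, shorter than its annotated transcript of 1497, so these numbers are approximate. The difference was 2.18 ± 1.77 log2 (limma adjusted p = 0.958), and it was 4.43 without UVB replicate 2.

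Grouped by UVB, 1 tested member was higher with UVB without overlap (Il1a) and 2 were lower (Il1rap and Il18rap). Over all tested genes, 23.2% were higher and 9.71% lower without overlap, and 32.9% were separated in either direction, against 3 of 9 members. Means of log2(TPM + 1) were higher with UVB for 6 of 9 members and for 61% of all tested genes, and lower for 3 members and 39% of genes. Means of TPM itself were higher with UVB for 4 members and lower for 5, since Il1rn and Il18r1 had a lower mean TPM and a higher mean log2 value with UVB. The median difference of the members was 0.24 log2 against 0.26 for all tested genes. After quantile normalization 4 of 9 members and 44.9% of all tested genes had a higher log2 mean, and the medians were -0.22 and -0.19. The higher count was 3 of 7 tested members without UVB replicate 1 (64.4% of genes) and 2 of 7 without non-UVB replicate 2 (57.0%). It was 6 of 8 without non-UVB replicate 1 (51.6%) and 5 of 8 without UVB replicate 2 (63.6%). By limma 0 genes reached an adjusted p under 0.05 (0% of 10286). Il1a and Il1rap, the 2 members with an unadjusted p under 0.05, each reached the filter through 1 pair of libraries alone. Without the filter on low values 0 members had such a p. Over all tested genes 1167 had an unadjusted p under 0.05 (11.3%). Without UVB replicate 1 or 2 that count over all genes was 62 or 33.

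Within the replicate numbers, 4 of 9 members differed in the same direction with UVB in both. Il1a was higher in both, and Il1b, Il1rap and Il18rap were lower in both. For Il1a and Il1rap this was fixed in advance, since each was at 0 in 1 pair and reached the filter through the other. For Il18rap it follows from the groups not overlapping, as given above. Il1b differed by -0.34 log2 in number 1 and -0.06 in number 2, and Il18rap by -5.02 and -0.96. The Il18rap value in number 2 compares the unlike implied lengths given above. The other 5, Il1rn, Il1r2, Il18r1, Nlrp3 and Casp1, had opposite signs. The matching shares over all tested genes were not computed, so these counts describe the members only. Il18r1 spanned the most, at 5.25 in number 1 and -5.03 in number 2.

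**Figure D2:**
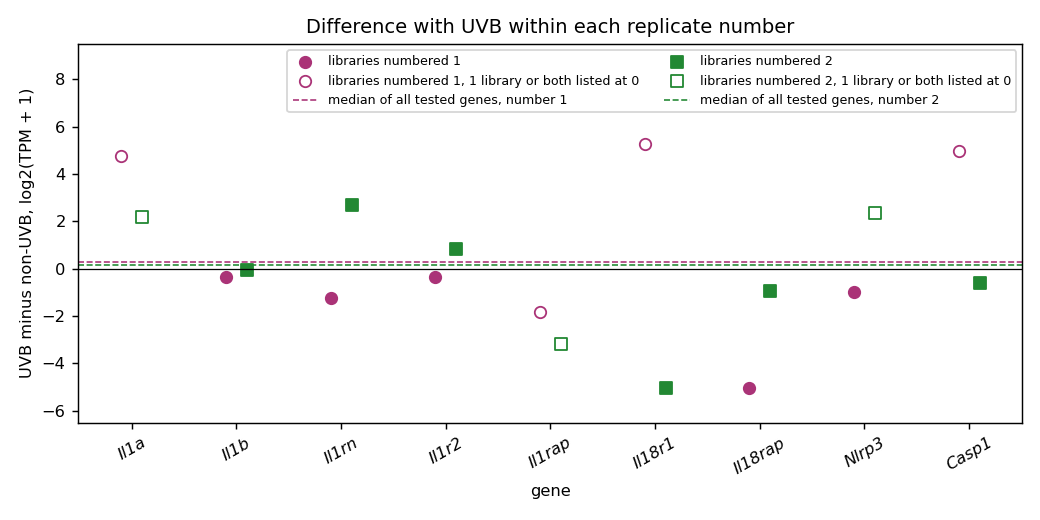
The difference of UVB minus non-UVB on the log2(TPM + 1) scale is drawn for each of the 9 tested genes, with circles for the libraries numbered 1 and squares for those numbered 2. Open symbols mark a gene listed at 0 in 1 or both libraries compared, and dashed lines are the medians of all tested genes, 0.27 and 0.16. Il1a lies above 0 in both numbers, Il1b, Il1rap and Il18rap lie below it, and the other 5 genes lie on both sides.

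Between replicate numbers, 0 of 9 members were higher in number 2 without overlap and 2 were lower (Il1b and Il1rn), where 22.5% of all tested genes were higher and 18.5% lower, 40.9% in all. The median difference of the members was -0.73 log2 against 0.10 for all tested genes, and 4 of 9 members had a higher mean log2 value in number 2, as did 53.4% of genes, and 5 a lower mean, as did 46.6%. With limma, 0 genes passed the adjusted threshold (0%) and 1290 had an unadjusted p under 0.05 (12.5%), among them 1 member, Il1b. That count was 339 without non-UVB replicate 1 and 489 without non-UVB replicate 2.

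Markers of other cells differed across the same libraries. In this bulk RNA, fewer cells of a type and less RNA per cell cannot be told apart. The 20 markers of monocytes, macrophages and dendritic cells, led by Cd74 and Fcer1g, summed to 14475 and 6359 TPM in the non-UVB pair and to 23484 and 14479 TPM in the UVB pair. The highest sum was in UVB replicate 1, and the lowest was in non-UVB replicate 2, where Il1rn was also lowest. Il1rn and Il1b were both highest in non-UVB replicate 1 instead, and Il1b was lowest in UVB replicate 2. Within each group the sum of monocyte, macrophage and dendritic cell markers was lower in number 2, as Il1b and Il1rn were. Of its 19 tested genes 16 had a lower mean log2 value in number 2 and 3 a higher one. Over all tested genes 46.6% had a lower mean. The gamma-delta list given above, led by Trdv4 and Trgc1, was likewise higher in the libraries numbered 1. Keratinocyte markers, led by Krt14 and Krt17, went the other way, at 372 and 4544 TPM in the non-UVB pair and 481 and 4792 TPM in the UVB pair. Neutrophil markers, led by S100a8 and S100a9, summed to 568 and 3256 TPM in the non-UVB pair and to 404 and 2448 TPM in the UVB pair. The higher sums in number 2 rested mainly on S100a8 and S100a9. These had 2249 and 985 TPM in non-UVB replicate 2 and 1455 and 736 TPM in UVB replicate 2. Of the 15 neutrophil markers 7 were at 0 in all libraries, among them the defining genes Ly6g, Mpo and Elane, chosen after their values were seen. Treg markers, led by Ctla4 and Tnfrsf18, had sums of 2028 and 5157 TPM in the non-UVB pair and 1924 and 4141 TPM in the UVB pair. Markers of CD4 T cells, led by Cd3g and Trbc2, summed to between 5391 and 8288 TPM. Langerhans cell markers, led by Mfge8 and Cd207, summed to between 285 and 822 TPM, and mast cell and basophil markers, led by Kit and Hdc, to between 5.63 and 34.6 TPM. The part of these cells in the values of Il1b and Il1rn was not tested.

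**Figure D3:**
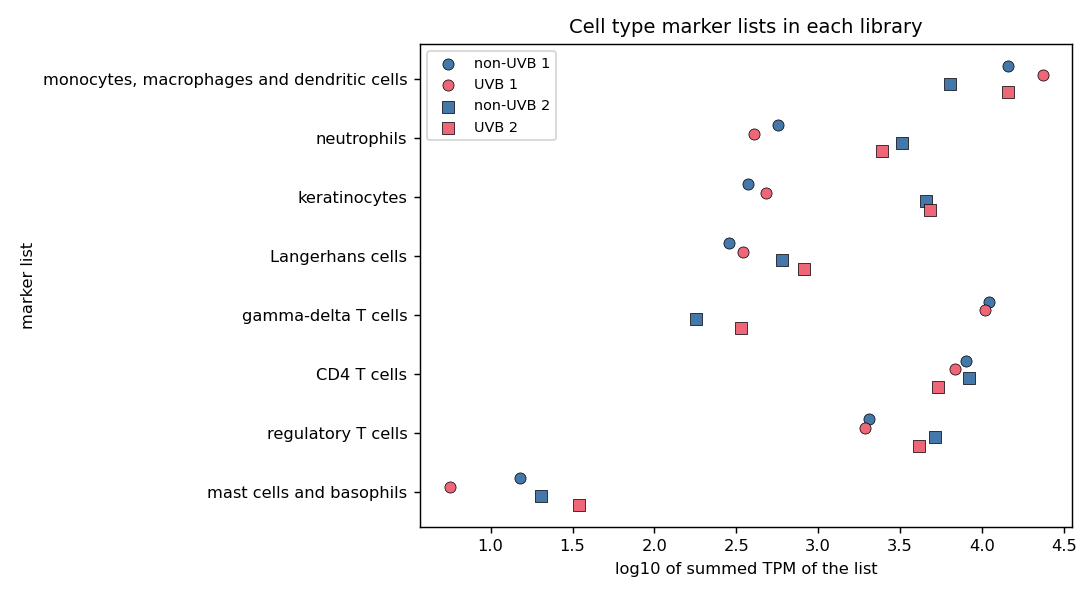
The summed TPM of 8 marker lists is drawn on a log10 scale for each library, with circles for number 1, squares for number 2, blue for non-UVB and red for UVB. The gamma-delta T cell list is at 10372 TPM or more in both libraries numbered 1 and at 340 TPM or less in both numbered 2. Keratinocyte, neutrophil and Treg lists are higher in number 2, the neutrophil list mainly through S100a8 and S100a9.

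Other genes of the pathway were described in 4 lists of 47 genes, of which 24 were tested and 14 were under 1 TPM in every library. By limma none passed the adjusted threshold with UVB or between numbers. With UVB, 15 of 24 had a higher mean of log2(TPM + 1), as did 61% of all tested genes. An unadjusted limma p under 0.05 was found for 6 of the 24 and for 11.3% of all genes. These were Il36g, Irak1, Map3k7, Ikbkg, Nek7 and Casp8, and all 6 were higher with UVB on that scale. So were 1026 of the 1167 genes with such a p over all tested genes. All but Irak1 had 1.49 TPM or less in both non-UVB libraries, where fewer genes were detected. Il36g, Map3k7 and Ikbkg were under 1 TPM in both non-UVB libraries. They could reach the filter only with both UVB values at 1 TPM or more, and so without overlap and higher with UVB. The part of detection in these differences was not tested. Between numbers 1 gene, Irak3, had an unadjusted limma p under 0.05. Of these, Irak1, Map3k7, Ikbkg, Nek7 and Irak3 are named after their values were seen.

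Of the other ligands and antagonists, 1 of 7 was tested. Il36g, an IL-36 cytokine of the epidermis that the files list as Il1f9, had 0 and 0.261 TPM in the non-UVB pair and 14.8 and 72.2 TPM in the UVB pair (limma adjusted p = 0.252). Il36a and Il36rn, the latter the gene of the IL-36 receptor antagonist, were at 104 and 88.2 TPM in UVB replicate 2 and under 0.1 TPM in the other libraries. Il33, an epithelial alarmin named after its values were seen, was likewise at 30.8 TPM in UVB replicate 2 and listed at 0 elsewhere. The summed keratinocyte markers were nearly as high in non-UVB replicate 2 (4544 TPM) as in UVB replicate 2 (4792 TPM). Il36a and Il33 were listed at 0 and Il36rn was at 0.031 TPM in non-UVB replicate 2. Within the keratinocyte list genes differed in both directions between these 2 libraries. Krt14 had 1526 TPM in non-UVB replicate 2 and 1232 TPM in UVB replicate 2, and Krt17 had 339 and 1226 TPM. The part of keratinocytes in the values of Il36a, Il36rn and Il33 was not tested.

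Of 6 other receptors, 2 were tested. Il1r1, the signalling receptor for IL-1, had 23.1 and 1.67 TPM in the non-UVB pair and 14.8 and 3.69 TPM in the UVB pair, and the numbers did not overlap (-2.46 ± 1.12 log2, limma adjusted p = 0.525). Its difference with UVB was 0.10 ± 1.67 log2. The gamma-delta markers were higher in the same libraries, and their part in this value was not tested. Il1rl1, the IL-33 receptor, had 26.4 and 64.4 TPM in the non-UVB pair and 4.09 and 18.6 TPM in the UVB pair, without overlap (-2.08 ± 1.20 log2, limma adjusted p = 0.805). Sigirr, an inhibitory receptor of the family, was at 112 TPM in UVB replicate 2 and under 0.5 TPM in the others.

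The MyD88 chain carries the signal from these receptors to NF-kappaB. Of its 15 genes 12 were tested, with 6 higher and 6 lower with UVB and a median of 0.55 log2. Among all tested genes 61% were higher, with a median of 0.26 log2. Of the 6 higher genes, Map3k7 and Ikbkg were under 1 TPM in both non-UVB libraries. The part of detection in the median of the chain was not tested. Ikbkb, a catalytic subunit of the IkappaB kinase, ranged from 55.7 to 116 TPM and differed by -0.07 ± 0.66 log2. Peli1, a ubiquitin ligase of the chain, differed by 1.18 ± 0.66. The adaptor gene Myd88 itself had 58.0 and 1.23 TPM in the non-UVB pair and 79.1 and 137 TPM in the UVB pair (3.19 ± 1.85 log2, limma adjusted p = 0.807).

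Of 19 other inflammasome genes, 9 were tested, with 7 higher and 2 lower with UVB and a median of 2.12 log2. Over all tested genes 61% were higher and the median was 0.26 log2. All 7 higher genes were under 1 TPM in at least 1 non-UVB library, and the 2 lower genes were not. The part of detection in this median was not tested. Ninj1, whose product ruptures the plasma membrane in lytic death, had 0.091 and 230 TPM in the non-UVB pair and 55.1 and 255 TPM in the UVB pair. Gsdmd, the gene of the pore-forming gasdermin D, was lower with UVB without overlap, at 57.5 and 87.7 TPM against 30.3 and 38.7 TPM (-1.03 ± 0.65 log2, limma adjusted p = 0.859). Casp8, an apoptotic protease that can also cut IL-1 beta, had 0.215 and 1.49 TPM against 116 and 45.3 TPM (5.41 ± 1.21 log2, limma adjusted p = 0.223). Pycard, the inflammasome adaptor gene, lies outside the naming rule and ranged from 22.9 to 54.2 TPM, so it was read in every library while Casp1 was near 0 in most.

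**Figure D4:**
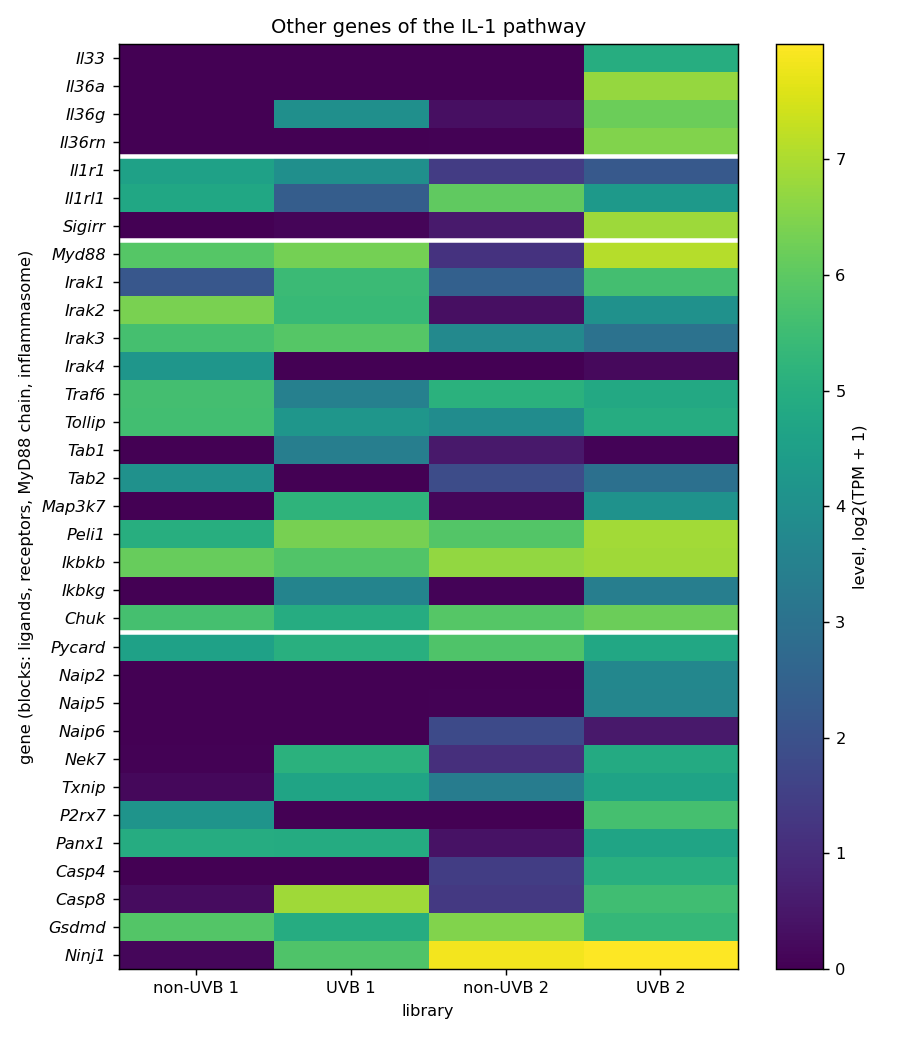
The level of 33 other pathway genes that reached 1 TPM in at least 1 library is drawn as log2(TPM + 1) by colour, with libraries in columns and the 4 lists in blocks. The block of ligands is bright mainly in UVB replicate 2, and Il1r1 is brighter in both libraries numbered 1.

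The tested protein-coding genes whose levels across the 4 libraries were most like those of Il1b, Il1r2 and Il1rn were found among 5828 candidates with a mean of at least 10 TPM. These members had the highest listed mean TPM, a place that for Il1r2 rests on the short implied length given above. Likeness was the root mean square distance of centred log2(TPM + 1) values. For Il1b these were Stk4, Tmem50a and Cyth1, at distances of 0.07, 0.07 and 0.08 log2. For Il1r2 they were Cox4i1, Dusp5 and Bcl11b, at 0.03, 0.06 and 0.07, and for Il1rn they were Bcar1, Mapk1ip1l and Tbl1x, at 0.18, 0.19 and 0.19. The distances rest on 4 values per gene and carry no test.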

How the data were processed

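Per the labels' protocols, total RNA was made into libraries with an ultra-low-input SMARTer kit, and single-end reads had 100 bp. Per the submitters' processing notes, the tools were HISAT2, StringTie and DESeq2 and the build was GRCm38 (mm10), without versions or roles. The authors deposited 1 gene table per library, which per the file headers gives coverage (mean depth per base, a signal not scaled to library size), FPKM (per kilobase and per 1000000) and TPM (scaled to 1000000 per library). No source used here gives the strandedness, so reads of overlapping or antisense genes may be mixed. Rows of a gene ID were summed, for 55487 genes in all. GENCODE M21 holds 55227 of the IDs and was used for gene types and exonic lengths.

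In 99.5% or more of genes with 1 annotated transcript and over 1 FPKM, the ratio of coverage to FPKM was the same within 0.001 of itself. This ratio gave the bases behind each library, and coverage times exonic length gave read equivalents, an estimate that rests on GENCODE M21 lengths and not a count, so no counting interval is given. Genes that reached 1 TPM in 2 or more of 4 libraries were compared on log2(TPM + 1) with limma 3.58.1 in R 4.3.3, with an intensity trend and group (or replicate number) as the only term, with Benjamini-Hochberg adjustment over all 10286 genes with a threshold of 0.05. This scale understates changes of low genes. The test was tried on simulated data. A log2 difference with UVB had a median SE of 1.12. Count tests were foreseen if the files held counts, and they hold TPM.

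The members and lists were chosen with earlier results of these data known. Named genes were all members, the 3 most abundant of each pathway list, the 2 most abundant of each cell type list and the nearest genes, and others are said to be chosen after their values were seen. List symbols absent from the files were matched through RefSeq synonyms (GRCm38.p6). Alternatives changed the pseudocount, filter, unit, scaling, genes behind the total, spread model and covariates, and left out each library.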

Additional observations from a re-analysis of the deposited data

How the results depend on the processing

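No member had an adjusted p under 0.05 in either comparison under any alternative run. Of 221 member values under alternatives 21 changed sign, 15 of them when a library was left out. With UVB, Il18r1 turned to -0.14 log2 with FPKM and -0.29 after quantile normalization, and Nlrp3 to -0.31 after quantile normalization. Between numbers, Il1r2 turned to -0.15 after quantile normalization, -0.020 after median scaling and -0.068 without haemoglobin genes. Quantile normalization gave 13 genes with an adjusted p under 0.05 between numbers, against 0, none of them a member. It also moved the median of all genes with UVB to -0.19 from 0.26. The cause of these changes was not tested.

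With 1 library left out at a time, the difference with UVB ranged from -0.64 to 0.23 log2 for Il1b, from -1.63 to 3.08 for Il1rn, from -0.065 to 0.55 for Il1r2, from -3.55 to 3.77 for Il18r1, from -5.11 to -0.87 for Il18rap, from -0.69 to 2.08 for Nlrp3 and from 1.64 to 4.43 for Casp1. Between numbers it ranged from -0.40 to 0.43 for Il1r2, from -0.24 to 2.28 for Il1rap, from -0.45 to 4.80 for Il18r1, from -0.29 to 4.73 for Il18rap and from -2.28 to 0.082 for Nlrp3, while it was negative in each run for Il1a (-3.65 to -0.18), Il1b (-0.90 to -0.56), Il1rn (-4.08 to -1.37) and Casp1 (-4.20 to -1.42). Il1a and Il1rap kept their value with UVB in the 2 runs that tested them, but those runs could not change it. Each left out 1 of 2 libraries that were both listed at 0. In runs without a library in which they were read, Il1a and Il1rap did not reach the filter. Members with a higher mean of log2 values numbered 2 to 6 with UVB and 1 to 3 in number 2, and genes with an unadjusted p under 0.05 numbered 33 to 1577 and 339 to 1246. In these runs the single library of a group is taken to vary as the other group does, the filter was reapplied, and Il1a, Il1rap and Casp1 were not tested in every run. Casp1 was also not tested with FPKM.

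With the replicate number as a block, 0 genes passed with UVB and 1110 had an unadjusted p under 0.05, and the difference for Il1b was -0.20. No call changed. The labels do not say what the number marks. The differences between numbers in the 2 groups correlated across genes at 0.17. An alternative chosen after seeing the data, read equivalents per 1000000 for Il1r2, gave 0.16 log2 with UVB, a difference between libraries in which the annotated length cancels. Members listed at 0 limit every statement on Il1a, Il1rap, Il18r1, Nlrp3 and Casp1.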
